A study of Mus musculus with 35 samples.

Results

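The 36 cell cycle and DNA replication genes described here were taken by name from a table of 21203 mouse genes. They form a list of 23 genes, called mitotic here, and a list of 13 genes that act mainly in S phase, when DNA is copied. Most of the 23 act from entry into mitosis to the separation of the daughter cells. Mki67, Ccna2 and Top2a on that list are not confined to mitosis. All 36 had a row in the table, and 36 of 36 passed the filter on low counts that left 17131 genes for testing.

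The tissue was brain of male C57BL/6NCrl mice, labelled left cortex and cut as a strip around the injection site, and RNA was sequenced from 34 mice in 7 groups. Closed head injury, a blunt blow to the intact skull, was given at 8 to 9 weeks of age. On day 5 after injury the mice received PBS, mesenchymal stromal cells (MSCs) or MSCs transfected with synthetic IL-4 mRNA (IL-4 MSCs) into the left hippocampus, and tissue was collected 2 days later (1 week post-injury, 1 wpi) or 16 days later (3 wpi). There were 5 mice in a group, but 4 for PBS at 3 wpi. The Sham mice had the surgical steps of the injury procedure but neither the impact nor an injection. They were collected in week 1 (2 mice) or week 3 (3 mice). The MSCs were purchased primary cells from mice of a C57BL/6N background, so their transcripts cannot be told apart from those of the host by sequence, and every injured group was also injected. Estimated counts summed to 29838316 to 41554249 per library. Levels are given as counts scaled to the library size (CPM), and 3 counts corresponded to 0.0721 to 0.101 CPM.

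A cell that divides first loads the MCM helicase on its DNA (licensing), then unwinds and copies the DNA in S phase, and then condenses, aligns and separates the chromosomes in mitosis. Genes of S phase are switched on largely through E2F factors, and those of mitosis later, through complexes that act at an element called the cell cycle genes homology region (CHR), often near CCAAT boxes bound by NF-Y. Neurons of the adult brain do not divide, whereas microglia, astrocytes, oligodendrocyte precursors, endothelial cells and leukocytes can, and microglia are known to divide after injury.

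Promoter sequences of 6 of the genes are shown first as sequence context, and a relation between motifs and expression was not tested. RefSeq promoter windows (GRCm38.p6, 250 bases before to 50 bases after the start) were matched by symbol for 30 of the 36 genes. The stretches are the 100 bases before the start of the 3 mitotic and the 3 S-phase genes with the smallest adjusted p between IL-4 MSCs and PBS at 1 wpi among the genes given in full here. They are read 5′ to 3′ on the strand of the gene, and capitals mark matches to the motifs spelled out in the next paragraph. All 6 genes lie on the minus strand: Cdc20 (chr4:118437344-118437443), Cdk1 (chr10:69352913-69353012), Mki67 (chr7:135716380-135716479), Mcm2 (chr6:88898781-88898880), Mcm7 (chr5:138171884-138171983) and Mcm3 (chr1:20820313-20820412).
Cdc20: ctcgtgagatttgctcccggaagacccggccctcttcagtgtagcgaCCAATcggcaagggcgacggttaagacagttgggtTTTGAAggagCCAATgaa
Cdk1: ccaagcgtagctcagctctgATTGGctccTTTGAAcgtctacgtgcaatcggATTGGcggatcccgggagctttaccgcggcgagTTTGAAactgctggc
Mki67: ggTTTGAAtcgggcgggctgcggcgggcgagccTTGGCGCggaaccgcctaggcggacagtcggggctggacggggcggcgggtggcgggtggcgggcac
Mcm2: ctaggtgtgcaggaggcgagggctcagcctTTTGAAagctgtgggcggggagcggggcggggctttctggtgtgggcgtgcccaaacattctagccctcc
Mcm7: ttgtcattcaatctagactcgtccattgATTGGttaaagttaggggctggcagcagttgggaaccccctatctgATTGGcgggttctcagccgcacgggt
Mcm3: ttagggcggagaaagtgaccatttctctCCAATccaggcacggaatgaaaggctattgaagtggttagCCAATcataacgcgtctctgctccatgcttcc

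The CHR was searched as TTTGAA, the CCAAT box as CCAAT and the E2F motif as TTCCCGC or TTCGCGC or TTGCCGC or TTGGCGC, each on both strands and counted once per gene whatever other motif it overlapped. A CHR match was present in the windows of 14 of 19 mitotic genes (73.7%) and 2 of 11 S-phase genes (18.2%), against 20.2% of all 27025 genes with a window. All 14 of those mitotic genes also held a CCAAT box, a pair of motifs found in 7.97% of all genes. CCAAT boxes were present in 17 of 19 mitotic and 8 of 11 S-phase genes, against 41.1% of all genes. The E2F motif was present in 6 of 11 S-phase genes, 3 of 19 mitotic genes and 10.9% of all genes. In the stretches above, Cdc20 and Cdk1 carry both a CHR and CCAAT boxes, Mki67 carries a CHR and an E2F motif, Mcm7 and Mcm3 carry CCAAT boxes without a CHR, and Mcm2 carries a CHR. A match to these letters is a description of the sequence and not evidence that a factor was bound.

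**Figure D1:**
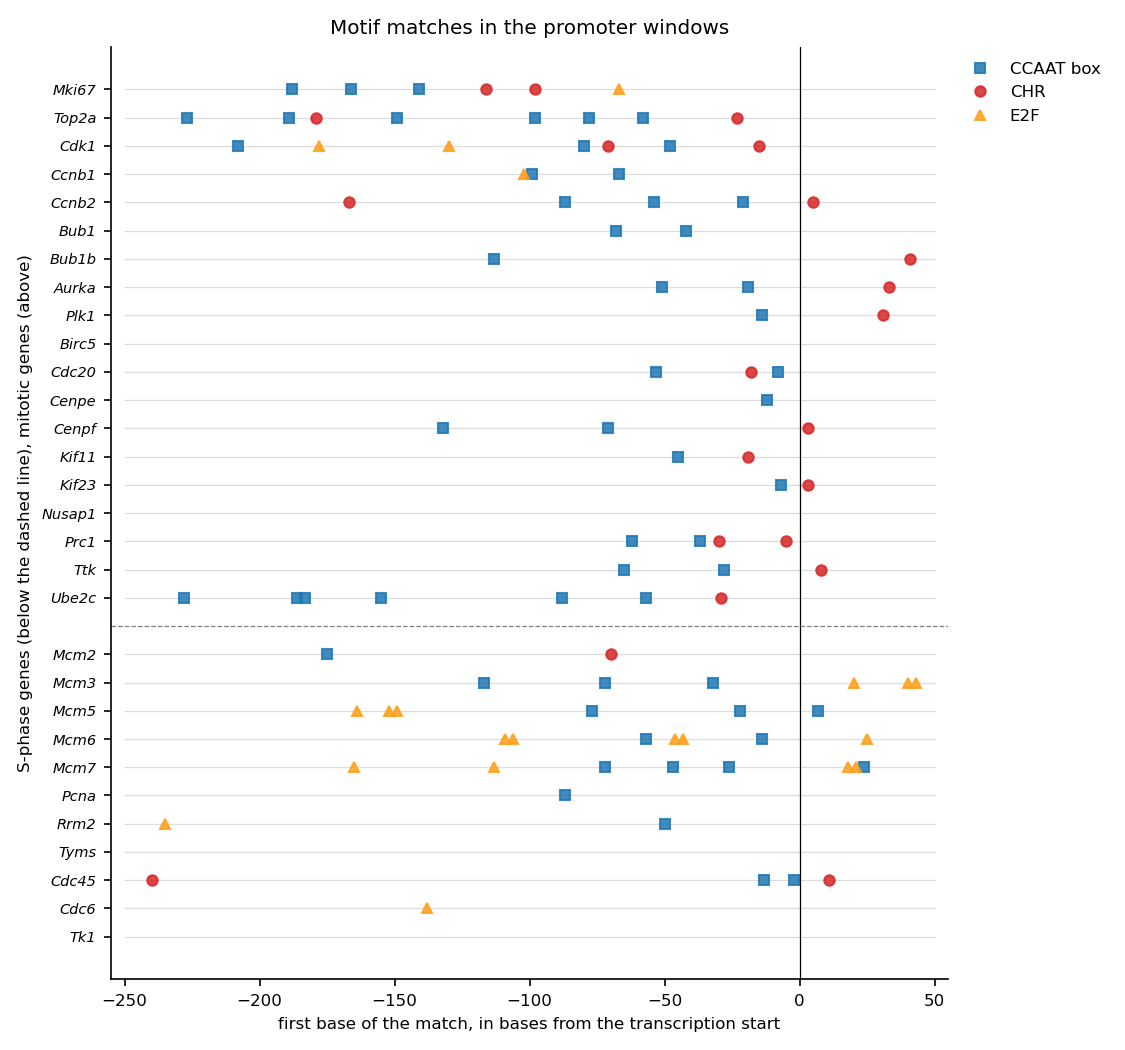
Positions of motif matches in the promoter windows of 19 mitotic genes (above the dashed line) and 11 S-phase genes (below it). The x axis gives the first base of each match in bases from the transcription start, squares are CCAAT boxes, circles CHR matches and triangles E2F motifs, and CHR matches are present in 14 mitotic genes and 2 S-phase genes.

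Levels in uninjured tissue were examined on the TPM scale, which accounts for transcript length. The mitotic genes were low in Sham, with 9 of 23 under 1 TPM, from 0.175 TPM for Bub1, a kinase of the spindle checkpoint, to 10.3 TPM for Prc1, which bundles microtubules of the central spindle. Of the S-phase genes, 1 of 13 was under 1 TPM. Pcna, the sliding clamp that holds DNA polymerase on its template and also serves DNA repair, was the highest at 43.8 TPM, and Mcm7, a helicase subunit, stood at 16.9 TPM. Summed over the list, the mitotic genes reached 44.8 TPM ± 4.19 (SD, n = 5) and the S-phase genes 95.2 TPM ± 0.645 in Sham mice.

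One Sham mouse stood apart. Replicate 5, collected in week 3, had the highest Sham value for 14 of 23 mitotic genes, and its mean log2 CPM over the mitotic list was 1.03 where the other Sham mice lay between 0.56 and 0.60. Its S-phase mean of 2.04 lay among those of the others, which ranged from 2.02 to 2.10. The summed level of 12 microglia and macrophage markers was 442 CPM in this mouse and 339.9, 318, 343 and 322 CPM in replicates 1 to 4. Their part in the mitotic values of this mouse was not tested.

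The first question was how the injured and injected brain at 1 wpi compared with Sham. By edgeR's quasi-likelihood test with Benjamini-Hochberg adjustment across all 17131 genes at 0.05, 23 of 23 mitotic genes were higher with IL-4 MSCs, 23 with MSCs and 22 with PBS. Of the 13 S-phase genes, 13, 12 and 12 were higher, and none was lower in any of the 3 groups. Across all genes, the share called higher was 18.4% with IL-4 MSCs, 11% with MSCs and 8.73% with PBS, and the share called lower 18.5%, 6.89% and 5.03%. The genes not called were Tyms, thymidylate synthase, with MSCs (log2 fold change 0.22, edgeR adjusted p = 0.0735) and with PBS (0.21, edgeR adjusted p = 0.101), and Bub1b, a spindle checkpoint kinase, with PBS (0.57, edgeR adjusted p = 0.0643). Against the 2 Sham mice of week 1 alone, 23, 21 and 22 mitotic and 13, 9 and 6 S-phase genes were higher with IL-4 MSCs, MSCs and PBS. That reference group is smaller, and the share of all genes called in that fit was not compared. With all 5 Sham mice, median log2 fold changes of the mitotic genes were 1.60 with IL-4 MSCs, 1.14 with MSCs and 1.11 with PBS, and those of the S-phase genes were 0.94, 0.63 and 0.52, while the medians over all genes were -0.02, -0.01 and -0.01. In CPM, 23, 23 and 20 of 23 mitotic and 11, 9 and 7 of 13 S-phase genes were above every Sham mouse in every mouse of the group, against 15.4%, 8.44% and 6.54% of all genes. Injury and injection cannot be told apart, because Sham mice had neither.

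**Figure D2:**
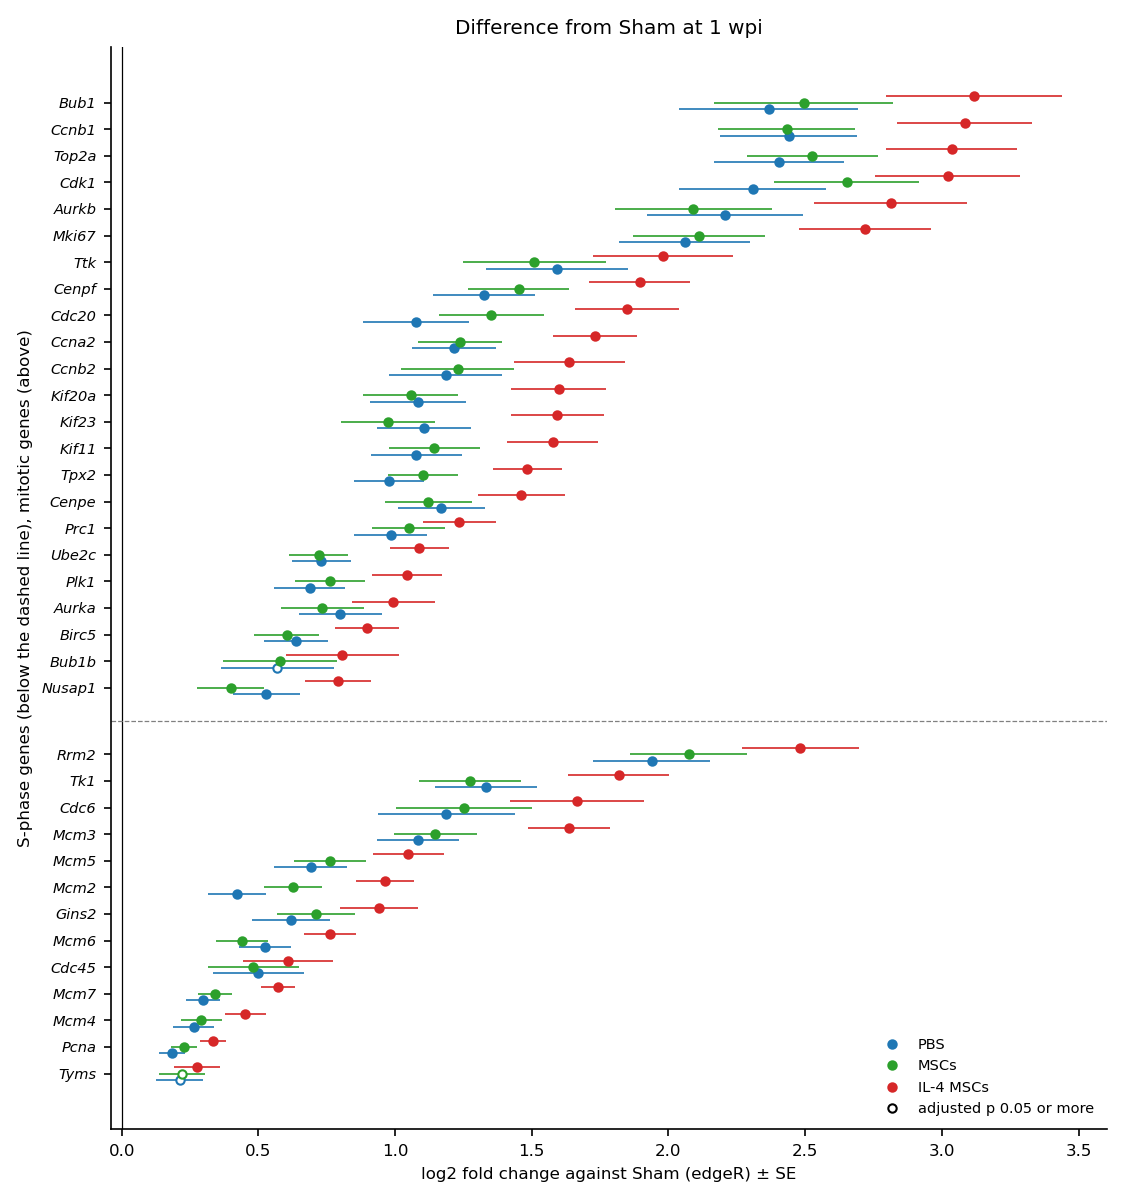
Log2 fold change against Sham at 1 wpi for each of the 36 genes (x axis, edgeR, bars are SE), in PBS (blue), MSCs (green) and IL-4 MSCs (red), with 5 mice in each group. Filled points passed an adjusted p of 0.05 and open points did not, and every point lies to the right of 0.

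Mki67 encodes Ki-67, the chromosome surface protein that is widely used to mark cycling cells. Its level in Sham was 3.25, 2.81, 4.01, 2.81 and 7.26 CPM, and the PBS values at 1 wpi were 11.7, 24.9, 20.4, 13.2 and 13.4 CPM. Mki67 was at 26.1, 13.8, 20.8, 15.5 and 10.4 CPM with MSCs and at 34.2, 26.7, 22.5, 20.7 and 28.0 CPM with IL-4 MSCs. Each injected mouse at 1 wpi was above every Sham mouse, and the PBS and MSCs mice overlapped. The log2 fold change against Sham was 2.06 ± 0.24 (SE) with PBS, 2.11 ± 0.24 with MSCs and 2.72 ± 0.24 with IL-4 MSCs (edgeR adjusted p = 3.03e-07, 1.30e-07 and 8.95e-11).

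Top2a is the topoisomerase that untangles sister chromatids. Sham mice had 1.78, 1.73, 1.98, 1.97 and 4.32 CPM, and the PBS values at 1 wpi were 9.57, 17.1, 13.9, 11.5 and 10.1 CPM. Top2a was at 20.5, 11.2, 16.8, 12.1 and 6.99 CPM with MSCs and at 24.6, 20.5, 15.4, 17.8 and 18.1 CPM with IL-4 MSCs. Every IL-4 MSCs mouse was above every Sham mouse, with a log2 fold change of 3.04 ± 0.24 (edgeR adjusted p = 6.25e-12), while replicate 5 was again the highest of the Sham mice.

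Cdk1 is the kinase that drives entry into mitosis. The Sham values were 0.369, 0.526, 0.430, 0.295 and 0.926 CPM, and the PBS values at 1 wpi were 2.12, 3.63, 2.86, 2.04 and 1.85 CPM. Cdk1 was at 5.06, 2.46, 3.6, 2.74 and 2.03 CPM with MSCs and at 4.99, 4.14, 3.95, 3.77 and 3.75 CPM with IL-4 MSCs. Its log2 fold change against Sham with IL-4 MSCs was 3.02 ± 0.26. Its cyclins rose with it, Ccnb1 (cyclin B1) from 0.476 ± 0.0808 CPM (SD, n = 5) in Sham to 4.04 ± 1.25 CPM, a log2 fold change of 3.08 ± 0.25, Ccna2 (cyclin A2) by 1.73 ± 0.15 and Ccnb2 (cyclin B2) by 1.64 ± 0.20 on the log2 scale (edgeR adjusted p at most 9.25e-08).

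Among the kinases of mitosis, Bub1 had the largest log2 fold change of the 36 genes with IL-4 MSCs (3.12 ± 0.32). Bub1 in Sham was at 0.0671, 0.155, 0.344, 0.344 and 0.494 CPM, and the PBS values at 1 wpi were 1.11, 2.02, 1.67, 1.32 and 1.29 CPM. Bub1 was at 2.52, 1.12, 1.92, 1.78 and 0.749 CPM with MSCs and at 3.79, 2.63, 2.07, 1.83 and 2.24 CPM with IL-4 MSCs. Its lowest Sham value was under the level of 3 counts. Aurkb, the Aurora kinase of the chromosomal passenger complex, rose by 2.81 ± 0.28 and Ttk, a checkpoint kinase, by 1.98 ± 0.26 on the log2 scale. Aurka, the Aurora kinase of the spindle poles (0.99 ± 0.15), Plk1 (1.04 ± 0.13) and Bub1b (0.81 ± 0.21) had smaller log2 fold changes. Birc5, the survivin subunit of the same complex as Aurkb, rose by 0.90 ± 0.12, a log2 fold change of counts. On the TPM scale the mean of Birc5 rose from 2.04 TPM in Sham by 216%, more than the log2 fold change gives, and its estimated counts were not whole in 32 of 34 libraries.

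Motors and spindle proteins rose as well. The kinesins Kif11 (1.58 ± 0.16), Kif20a (1.60 ± 0.17) and Kif23 (1.59 ± 0.17) had log2 fold changes with IL-4 MSCs that lay within their SE of each other. Cenpe and Cenpf, which act at the kinetochore, rose by 1.46 ± 0.16 and 1.89 ± 0.19, and Tpx2, a spindle assembly factor, by 1.48 ± 0.13. Prc1 rose by 1.23 ± 0.13 and Nusap1, another microtubule binder, by 0.79 ± 0.12. Nusap1 was at 4.29, 4.11, 4.67, 3.81 and 4.88 CPM in Sham, 5.23, 6.42, 7.0, 6.53 and 6.21 CPM with PBS and 9.24, 8.11, 6.50, 6.77 and 7.03 CPM with IL-4 MSCs. Prc1 was at 3.93, 4.61, 3.87, 4.48 and 3.86 CPM in Sham, 7.32, 10.3, 8.38, 7.73 and 7.24 CPM with PBS and 13.2, 9.48, 8.41, 8.66 and 9.17 CPM with IL-4 MSCs. For both genes the Sham mice lay below all mice of the other groups given, and PBS and IL-4 MSCs mice overlapped.

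Cdc20 activates the anaphase-promoting complex. Cdc20 in Sham was at 1.21, 0.711, 0.888, 0.910 and 1.17 CPM, and the PBS values at 1 wpi were 1.90, 2.57, 2.22, 1.82 and 1.76 CPM. Cdc20 was at 3.23, 1.88, 3.34, 2.42 and 1.56 CPM with MSCs and at 4.24, 4.25, 2.92, 3.06 and 3.14 CPM with IL-4 MSCs. Its log2 fold change against Sham with IL-4 MSCs was 1.85 ± 0.19 (edgeR adjusted p = 1.76e-09), and that of Ube2c, the ubiquitin-conjugating enzyme of the same complex, was 1.09 ± 0.11.

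Among S-phase genes, those of nucleotide supply had unlike fold changes. Rrm2 is the subunit of ribonucleotide reductase that limits deoxynucleotide synthesis. Rrm2 in Sham was at 1.51, 2.04, 1.60, 1.72 and 1.48 CPM, and the PBS values at 1 wpi were 6.24, 7.23, 6.97, 6.16 and 5.51 CPM. Rrm2 was at 9.69, 5.43, 8.86, 7.93 and 3.31 CPM with MSCs and at 14.9, 8.82, 8.10, 8.0 and 7.05 CPM with IL-4 MSCs. Its log2 fold change with IL-4 MSCs was 2.48 ± 0.21, and that of Tk1, the thymidine kinase of the salvage route, was 1.82 ± 0.18. Tk1 was at 1.11, 1.11, 0.916, 0.787 and 0.803 CPM in Sham, 1.90, 2.79, 2.73, 1.92 and 2.52 CPM with PBS and 4.31, 3.48, 3.48, 3.18 and 2.21 CPM with IL-4 MSCs. Tyms, the enzyme of the parallel route that makes thymidylate anew, had a log2 fold change of 0.28 ± 0.09 (edgeR adjusted p = 0.0111), and its IL-4 MSCs and Sham mice overlapped.

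The 6 measured genes of the MCM helicase, whose products form a ring, differed in fold change while their Sham levels differed too. With IL-4 MSCs, Mcm3 rose by 1.64 ± 0.15 on the log2 scale, Mcm5 by 1.05 ± 0.13, Mcm2 by 0.96 ± 0.11, Mcm6 by 0.76 ± 0.09, Mcm7 by 0.57 ± 0.06 and Mcm4 by 0.45 ± 0.07. Sham levels of Mcm3, Mcm5 and Mcm2 were 1.92, 3.19 and 3.25 TPM, and those of Mcm6, Mcm4 and Mcm7 were 5.93, 6.41 and 16.9 TPM. The gains in level lay between 2.65 TPM for Mcm4 and 5.59 TPM for Mcm7. Cdc6, which loads the helicase, rose by 1.66 ± 0.25, and Gins2 and Cdc45, which activate it, by 0.94 ± 0.14 and 0.61 ± 0.16 on the log2 scale (edgeR adjusted p at most 0.00370 for these genes).

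Mcm3 was at 2.11, 2.85, 3.44, 2.63 and 2.62 CPM in Sham, 4.44, 7.35, 6.68, 5.18 and 5.31 CPM with PBS and 10.6, 9.56, 7.26, 7.07 and 8.04 CPM with IL-4 MSCs. Mcm4 was at 11, 10.9, 10.1, 11.4 and 11.3, at 12.8, 13.5, 12.9, 12.7 and 13.6 and at 16.5, 14.9, 15.3, 13.8 and 14.3 CPM in the same groups, and Mcm7 at 12.5, 10.9, 12.1, 9.84 and 11.6, at 12.3, 15.4, 13.7, 13.8 and 14.5 and at 18.1, 16.8, 16.9, 16.4 and 16.3 CPM. No Sham mouse reached the lowest IL-4 MSCs mouse for any of the 3 genes. Pcna was at 28.5, 29.0, 28.0, 30.9 and 28.1 CPM in Sham and at 39.4, 38.0, 35.4, 35.2 and 34.2 CPM with IL-4 MSCs, groups that did not overlap, with a log2 fold change of 0.33 ± 0.05 (edgeR adjusted p = 1.46e-06). With PBS it was at 31.9, 35.0, 33.2, 30.7 and 33.3 CPM and with MSCs at 37.1, 30.2, 34.2, 34.7 and 33.0 CPM, and both of these groups overlapped Sham.

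Fold changes and absolute gains of the lists were compared. With IL-4 MSCs the median log2 fold change of the mitotic genes exceeded that of the S-phase genes by 0.66 (0.52 with MSCs and 0.58 with PBS). Against the Sham mice of week 1 alone, which leave out replicate 5, the mitotic and S-phase medians lay further apart, at 1.92 and 0.77 with IL-4 MSCs, 1.31 and 0.57 with MSCs, and 1.32 and 0.41 with PBS. The median gain per gene with IL-4 MSCs was 2.76 TPM for the mitotic and 3.92 TPM for the S-phase genes, and the gains summed to 74.7 TPM over 23 mitotic and 53.8 TPM over 13 S-phase genes. Among genes at 1 to 5 TPM in Sham, 12 mitotic genes had a median log2 fold change of 1.53 and 7 S-phase genes 1.05, with overlapping ranges of 0.79 to 3.02 and 0.61 to 2.48. At 5 TPM or more, Prc1 and Ube2c had 1.23 and 1.09, and the 5 S-phase genes of that level (Mcm4, Mcm6, Mcm7, Pcna and Tyms) had 0.28 to 0.76. In mean TPM, Ube2c gained 116% and Prc1 37.0%, the latter within the 24.5% to 74.4% of these S-phase genes. Sham values enter both the class and the fold, and the classes were set after the values were seen, so these are descriptions.

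**Figure D3:**
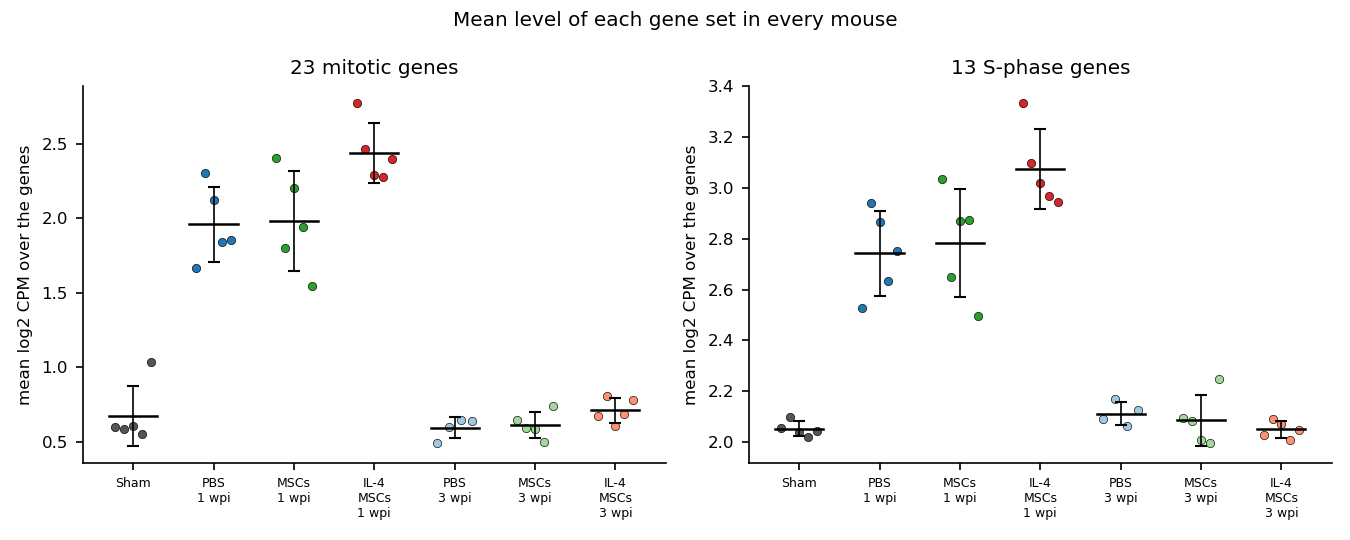
Mean log2 CPM over the 23 mitotic genes (left) and the 13 S-phase genes (right) in every mouse, by group along the x axis. Points are mice, the horizontal bar is the group mean and the error bar its SD. In both panels the 1 wpi groups lie above Sham and the 3 wpi groups near it, and the upper Sham point on the left is replicate 5 at 1.03.

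Within a group, some mice were high or low for most of the 36 genes. With MSCs at 1 wpi, replicate 1 had the highest value for 27 genes and replicate 5 the lowest for 29. With PBS at 1 wpi, replicate 2 was the highest for 24 genes and replicate 1 the lowest for 22. With IL-4 MSCs at 1 wpi, replicate 1 was the highest for 32 genes, with mean mitotic and S-phase log2 CPM of 2.77 and 3.33 where the others ranged from 2.28 to 2.47 and from 2.95 to 3.10. Summed microglia and macrophage markers in that mouse were 829 CPM, within the 721 to 899.8 CPM of its group. The coefficient of variation between mice at 1 wpi had a median of 16.7% to 23.3% over the mitotic genes and 11.3% to 13.5% over the S-phase genes. Fewer cells of a type and less RNA per cell cannot be told apart in RNA from whole tissue.

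The second question was whether IL-4 MSCs differed from the other injected groups at 1 wpi. Against PBS, 14 of 23 mitotic and 7 of 13 S-phase genes were higher and none was lower (edgeR, adjusted p under 0.05), where 11.2% of all genes were called higher and 6.16% lower. Median log2 fold changes were 0.50 for the mitotic and 0.32 for the S-phase genes (-0.00419 over all genes), and all 36 were above 0. Against MSCs, 7 mitotic and 5 S-phase genes were higher (7.66% of all genes, with 1.03% lower), with medians of 0.43 and 0.29 (-0.01 over all genes) and again all 36 above 0. Between MSCs and PBS, edgeR called none of the 36 (0.123% of all genes were called higher and 0% lower). Of the 36, 0 had an unadjusted p under 0.05, beside 774 of all 17131 genes. DESeq2 called 0 of the 36, beside 26 genes in all, and the mitotic and S-phase medians were 0.02 and 0.05.

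Cdk1, Ccnb1, Aurkb, Cdc20 and Tpx2 of the mitotic list and Mcm2, Mcm4 and Mcm7 of the S-phase list were higher in every IL-4 MSCs mouse than in any PBS mouse, as were 9.63% of all genes. Against MSCs this held for Ccnb2, Birc5, Kif23, Nusap1, Mcm2 and Mcm6 and for 7.33% of all genes. Cdc20 had the largest log2 fold change against PBS, 0.77 ± 0.18 (edgeR adjusted p = 0.00200). Bub1 (0.75 ± 0.27, adjusted p = 0.0490), Cdk1 (0.71 ± 0.22, adjusted p = 0.0246) and Mki67 (0.66 ± 0.22, adjusted p = 0.0330, edgeR) followed in size.

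Mcm2, a helicase subunit, had the smallest adjusted p of the 36 genes against PBS (0.54 ± 0.10 on the log2 scale, edgeR adjusted p = 0.000254). Mcm2 in Sham was at 4.50, 4.55, 5.10, 4.40 and 4.41 CPM, and the PBS values at 1 wpi were 5.23, 7.23, 6.87, 5.59 and 5.77 CPM. Mcm2 was at 8.13, 6.16, 7.69, 7.55 and 5.89 CPM with MSCs and at 10.5, 9.10, 8.49, 8.18 and 8.54 CPM with IL-4 MSCs. The IL-4 MSCs mice were above all mice of both other injected groups, and the log2 fold change against MSCs was 0.34 ± 0.10 (edgeR adjusted p = 0.0332). Mcm3 was higher by 0.55 ± 0.14 against PBS and 0.49 ± 0.14 against MSCs, Mcm7 by 0.28 ± 0.06 and 0.23 ± 0.06, and Tk1 by 0.48 ± 0.17 and 0.54 ± 0.17. Rrm2 (0.54 ± 0.19), Mcm5 (0.36 ± 0.13) and Pcna (0.15 ± 0.05) were called against PBS alone, at edgeR adjusted p of 0.0484, 0.0494 and 0.0288.

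Nusap1 (0.26 ± 0.12), Prc1 (0.25 ± 0.13), Aurka (0.20 ± 0.14) and Bub1b (0.24 ± 0.20) did not pass against PBS, and neither did Aurkb (0.61 ± 0.24, edgeR adjusted p = 0.0747) despite groups that did not overlap. For Prc1 the scale changed the direction, since its mean was 9.78 CPM with IL-4 MSCs and 8.20 CPM with PBS but differed by -1.16 TPM (IL-4 MSCs minus PBS), and its estimated counts were not whole in 33 of 34 libraries, as happens where reads are shared out between transcripts. Against MSCs, Ccnb1 (0.65 ± 0.21, adjusted p = 0.0453) and Kif23, the kinesin of the midbody (0.62 ± 0.16, adjusted p = 0.00978), had the largest called log2 fold changes, and Nusap1 was called (0.39 ± 0.12, adjusted p = 0.0318, edgeR).

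The number of calls changed when single mice were left out. Such fits have fewer mice, and the share of all genes called in them was not compared. Against PBS, 6 of 36 genes in place of 21 were called without replicate 1 of IL-4 MSCs, 11 without its replicate 2, and 6, 9 and 9 without replicates 1, 4 and 5 of PBS. The 6 genes called against PBS whichever mouse was left out were Ccna2, Cdc20, Tpx2, Mcm2, Mcm3 and Mcm7. Against MSCs, the count of 12 became 1 without replicate 1 of IL-4 MSCs, 6 without its replicate 2, and 19, 4, 7 and 2 without replicates 1, 2, 4 and 5 of MSCs, and no gene was called in every case. With the striatum marker score as a covariate, 11 genes were called against PBS (5 of 23 mitotic and 6 of 13 S-phase genes), and all 36 log2 fold changes stayed above 0. The share of all genes called in that fit was not compared. Striatum markers summed to 308 to 439 CPM with PBS, 249.7 to 913 CPM with MSCs and 442 to 884 CPM with IL-4 MSCs.

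**Figure D4:**
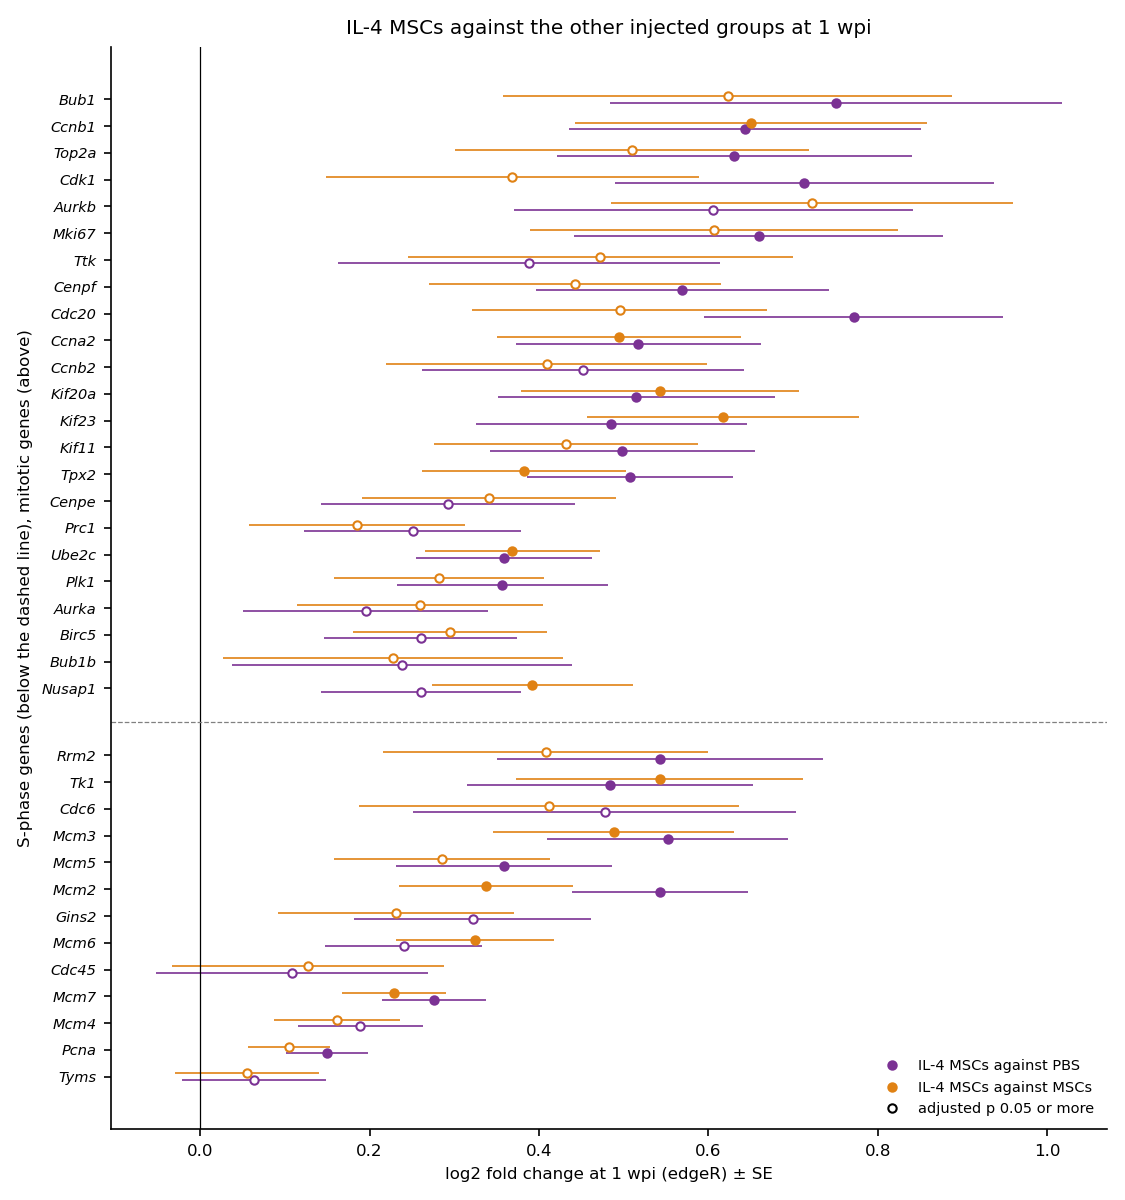
Log2 fold change of the 36 genes with IL-4 MSCs against PBS (purple) and against MSCs (orange) at 1 wpi (x axis, edgeR, bars are SE, 5 mice in each group). Filled points passed an adjusted p of 0.05 and open points did not. All points lie to the right of 0, up to 0.77 for Cdc20 against PBS.

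Marker genes of cell types were tested in the same comparisons, in which 18.4% (IL-4 MSCs), 11% (MSCs) and 8.73% (PBS) of all genes were higher than Sham and 11.2% were higher with IL-4 MSCs than with PBS. Of 12 microglia and macrophage markers, 11 were higher than Sham at 1 wpi with IL-4 MSCs, 11 with MSCs and 11 with PBS, and 7 were higher with IL-4 MSCs than with PBS. Their summed level was 318 to 442 CPM in Sham, 566 to 718 with PBS, 608 to 721 with MSCs and 721 to 899.8 with IL-4 MSCs. Of 6 monocyte markers 6 and of 8 endothelial markers 8 were higher with IL-4 MSCs than with PBS. The monocyte sum was 119.8 to 187 CPM with PBS, 167 to 239 with MSCs and 300.1 to 448 with IL-4 MSCs. Fn1, fibronectin, made up 96.1%, 96.2% and 92.7% of it in these groups, so the sum mostly follows Fn1. The endothelial sum was 199 to 224, 214 to 261 and 292 to 361 CPM, led by Flt1. The part of each cell type in the cell cycle values was not tested.

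Other marker lists were read beside the 11.2% of all genes higher and 6.16% lower with IL-4 MSCs than with PBS. Ly6g, the defining neutrophil marker, was at or under 3 counts in every library. Of 6 tested neutrophil markers, 2 were higher with IL-4 MSCs than with PBS, Mmp8 (2.02 ± 0.50) and Mmp9 (0.72 ± 0.21). S100a8 (-0.68 ± 0.73), S100a9 (-0.50 ± 0.79), Ltf (-0.32 ± 0.59) and Ngp (0.16 ± 0.68) were not called. The neutrophil sum was 3.55 to 14.0 CPM with PBS and 4.74 to 10.2 CPM with IL-4 MSCs, groups that overlapped. Of 11 T cell markers, 2 were higher with IL-4 MSCs than with PBS. Of 7 oligodendrocyte precursor markers 0 and of 9 neural progenitor markers 1 differed between these groups by edgeR. At an unadjusted p under 0.05 there was 1 of the former, beside 5045 of all 17131 genes. Astrocyte markers were higher than Sham for 5 of 8 with IL-4 MSCs and for 5 of 8 with PBS, while the most abundant marker, the glutamate transporter gene Slc1a2, was lower with IL-4 MSCs (-0.24 ± 0.05, edgeR adjusted p = 0.000175) and not called with PBS (0.00 ± 0.05). Gfap, the filament protein of reactive astrocytes, was at 182 ± 22.7 CPM in Sham, 944 ± 152 CPM with PBS and 1134 ± 176 CPM with IL-4 MSCs (SD, n = 5). The astrocyte sum was 5190.2 to 5769 CPM in Sham, 6299 to 6738 CPM with PBS and 5795 to 6561 CPM with IL-4 MSCs. Neuron markers, led by Camk2a, summed to 8895 to 10198 CPM in Sham and 7870.2 to 8536 CPM with IL-4 MSCs at 1 wpi. Erythroid markers summed to 3.58 to 30.6 CPM with PBS and 72.1 to 258 CPM with IL-4 MSCs, where Hba-a2, a globin gene, made up 97.7%. Hba-a2 was higher with IL-4 MSCs (4.80 ± 0.66) and its near-identical copy Hba-a1 lower (-2.20 ± 0.77, edgeR adjusted p = 0.0473). Mean levels with PBS and with IL-4 MSCs were 6.79 and 184.8 CPM for Hba-a2 and 1.68 and 0.360 CPM for Hba-a1. How reads were split between these copies was not tested. Hbb-bs (-1.31), Hbb-bt (-1.09) and Alas2 (-0.24) were not called. Of 10 hippocampus markers, 1 was called lower with IL-4 MSCs than with PBS, and their sum was 347 to 387 CPM with PBS and 291 to 307 CPM with IL-4 MSCs, groups that did not overlap.

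Of 13 markers of MSCs, 9 were higher with IL-4 MSCs and 3 (Col1a1, Col1a2 and Col3a1, collagens) with MSCs than with PBS, beside 11.2% and 0.123% of all genes. Their summed level was 711 to 739 CPM in Sham, 739.7 to 790.1 with PBS, 842 to 1277 with MSCs and 941 to 1090.0 with IL-4 MSCs, led by Thy1, a gene that neurons also express and that was not called against PBS with IL-4 MSCs (-0.07) or MSCs (-0.01). Their part in the cell cycle values was not tested.

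Further genes of the cell cycle outside the 36 were tested in the same way. Of 52 other mitosis genes, 47 were higher than Sham at 1 wpi with IL-4 MSCs, 44 with MSCs and 41 with PBS, against 18.4%, 11% and 8.73% of all genes, and 23 were higher with IL-4 MSCs than with PBS (11.2% of all genes). Hmmr, a spindle-binding protein (0.43 ± 0.09), Smc4, a condensin subunit (0.42 ± 0.09), and Espl1, the separase that cuts cohesin (0.62 ± 0.14), had the smallest adjusted p against PBS. Of 43 other replication genes, 27, 17 and 17 were higher than Sham in the same groups and 11 were higher with IL-4 MSCs than with PBS, beside the same shares of all genes. The smallest adjusted p against PBS were those of Cdt1, a licensing factor (0.77 ± 0.12, edgeR adjusted p = 1.34e-05), Timeless (0.42 ± 0.08) and Pola2, a subunit of DNA polymerase alpha (0.39 ± 0.08). The median log2 fold change against Sham with IL-4 MSCs was 1.19 for the mitosis genes and 0.39 for the replication genes.

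Among 29 G1 cyclins, CDKs and E2F regulators, which act before S phase, 16 were higher and 1 (E2f3) was lower with IL-4 MSCs than in Sham (18.4% and 18.5% of all genes), with a median log2 fold change of 0.19. Foxm1, an activator of mitotic genes, was at 1.52 to 2.31 CPM in Sham and at 5.02 to 7.31 CPM with IL-4 MSCs. Cdk6 (0.47 ± 0.07), Myc (0.62 ± 0.11) and Cdk4 (0.25 ± 0.05), which promote passage through G1, had the smallest adjusted p against PBS on this list (edgeR, 5.93e-06, 0.000149 and 0.000284).

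Among 19 CDK inhibitors and p53 targets, 7 were higher and 1 (Zmat3) was lower with IL-4 MSCs than in Sham, beside 18.4% and 18.5% of all genes. Cdkn2a encodes the p16 and p19 proteins, which halt the cycle. It was at 0 to 0.0617 CPM in the 5 Sham mice, under the level of 3 counts, and at 0.0317, 0.168, 0.0642, 0.157 and 0.176 CPM with PBS at 1 wpi, where replicates 1 and 3 were also under that level. With MSCs it was at 2.49, 1.88, 0.214, 1.21 and 0.780 CPM and with IL-4 MSCs at 0.979, 2.77, 2.16, 2.73 and 1.54 CPM. Every mouse that received cells was above every PBS mouse at 1 wpi, and edgeR called the difference against PBS for IL-4 MSCs (log2 fold change 4.02 ± 0.50, adjusted p = 3.25e-07) and for MSCs (3.39 ± 0.51, adjusted p = 0.000610). At 3 wpi the gene was at no more than 0.195 CPM in any of the 3 groups. Btg1 (0.32 ± 0.07) and Trp53 (0.17 ± 0.05) were also higher with IL-4 MSCs than with PBS.

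The third question was what remained at 3 wpi. Against Sham, edgeR called none of the 36 genes with IL-4 MSCs, MSCs or PBS, where 2.76%, 1.11% and 0.0233% of all genes were called higher and 1.52%, 0.035% and 0.00584% lower. At an unadjusted p under 0.05 there were 4, 0 and 0 of 36, beside 3408, 1886 and 914 of all 17131 genes. DESeq2 called 0, 0 and 0 of the 36, beside 1037, 329 and 13 genes in all. Medians of the mitotic genes were 0.01, -0.05 and -0.11 and those of the S-phase genes -0.01, 0.05 and 0.06 on the log2 scale. Mki67 was at 2.84, 3.05, 3.20 and 2.67 CPM with PBS, at 3.43, 3.87, 3.24, 2.98 and 4.81 CPM with MSCs and at 3.84, 4.39, 3.67, 4.01 and 4.32 CPM with IL-4 MSCs, all below the 7.26 CPM of Sham replicate 5. The other 4 Sham mice were at 2.81 to 4.009 CPM. Above that range lay the MSCs mouse at 4.81 CPM, the IL-4 MSCs mice at 4.39, 4.012 and 4.32 CPM and no PBS mouse.

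Between treatments at 3 wpi, edgeR called none of the 36 genes in any of the 3 comparisons (2.17%, 2.29% and 0.0817% of all genes were higher with IL-4 MSCs than with PBS, with IL-4 MSCs than with MSCs and with MSCs than with PBS, and 0.776%, 1.18% and 0% lower). At an unadjusted p under 0.05 there were 6, 0 and 1 of the 36 genes, beside 2895, 3074 and 981 of all 17131 genes. DESeq2 called 0, 0 and 0 of the 36, beside 767, 873 and 31 genes in all. Mki67, Top2a, Kif11 and Mcm7 were higher in every IL-4 MSCs mouse than in any PBS mouse at 3 wpi, as were 1.79% of all genes. Kif11 and Kif23 were likewise higher in every MSCs mouse than in any PBS mouse (0.899% of all genes), and Bub1b was lower in every IL-4 MSCs mouse than in any Sham mouse (1.32% of all genes). Without replicate 2 of IL-4 MSCs at 3 wpi, 1 gene was called against Sham and 1 against PBS.

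Within each treatment, 23, 23 and 23 of 23 mitotic genes and 13, 10 and 10 of 13 S-phase genes were lower at 3 wpi than at 1 wpi with IL-4 MSCs, MSCs and PBS (edgeR, with 16.6%, 4.93% and 4.9% of all genes lower). The mitotic medians were -1.64, -1.13 and -1.26 and the S-phase medians -0.97, -0.63 and -0.49 on the log2 scale. Tyms and Cdc45 were not called with MSCs or with PBS, nor was Mcm4 with MSCs or Pcna with PBS. The mice of the 2 times were different animals.

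Whether the difference between weeks itself differed by treatment was tested as an interaction. No mitotic gene passed between IL-4 MSCs and PBS or between IL-4 MSCs and MSCs in edgeR or DESeq2. At an unadjusted p under 0.05 there were 5 and 4 of 23, beside 3001 and 3556 of all 17131 genes. By edgeR, Mcm2 and Mcm6 passed between IL-4 MSCs and PBS (3.93% of all genes passed in that direction), and Mcm6 alone between IL-4 MSCs and MSCs (5.96%). DESeq2 called 2 S-phase genes against PBS and 3 (Mcm6, Mcm3 and Tk1) against MSCs, beside 1005 and 1528 genes in all. Nothing particular to the 36 genes was read from these calls. None passed between MSCs and PBS (0% of all genes in either direction, edgeR), where 1 of the 36 had an unadjusted p under 0.05, beside 572 of all 17131 genes. DESeq2 called 0 of the 36 there, beside 6 genes in all. Mcm6 was at 17.4, 14.2, 13.6, 13.7 and 13.7 CPM with IL-4 MSCs at 1 wpi and at 7.54, 9.10, 6.89, 5.98 and 7.45 CPM at 3 wpi. With PBS it was at 11.1, 13.7, 12.7, 11.3 and 12.5 CPM and then at 8.82, 8.91, 8.94 and 9.01 CPM, and in Sham at 7.88, 7.89, 9.85, 9.30 and 7.75 CPM. The 1 wpi mice were above the 3 wpi mice in both groups.

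The count of 2 between IL-4 MSCs and PBS became 0, 4, 0 and 1 without replicates 1, 2, 4 and 5 of PBS at 1 wpi, and 1 without replicate 1 or replicate 3 of PBS at 3 wpi, replicate 1 of IL-4 MSCs at 1 wpi or replicate 4 of IL-4 MSCs at 3 wpi. The count of 1 between IL-4 MSCs and MSCs became 2 without replicate 1 or 3 of MSCs at 1 wpi, replicate 1, 3 or 4 of MSCs at 3 wpi, replicate 3, 4 or 5 of IL-4 MSCs at 1 wpi or replicate 2 of IL-4 MSCs at 3 wpi. The striatum markers were highest in the IL-4 MSCs group at 3 wpi, where 4 of 5 mice had sums of 1562 to 2650.0 CPM and replicate 2 had 397 CPM, against 238 to 766 CPM in the other 3 wpi groups. With the striatum score as a covariate, Mcm6 passed against PBS and Mcm2 did not, and against MSCs Mcm6 did not pass while Kif23 did.

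**Figure D5:**
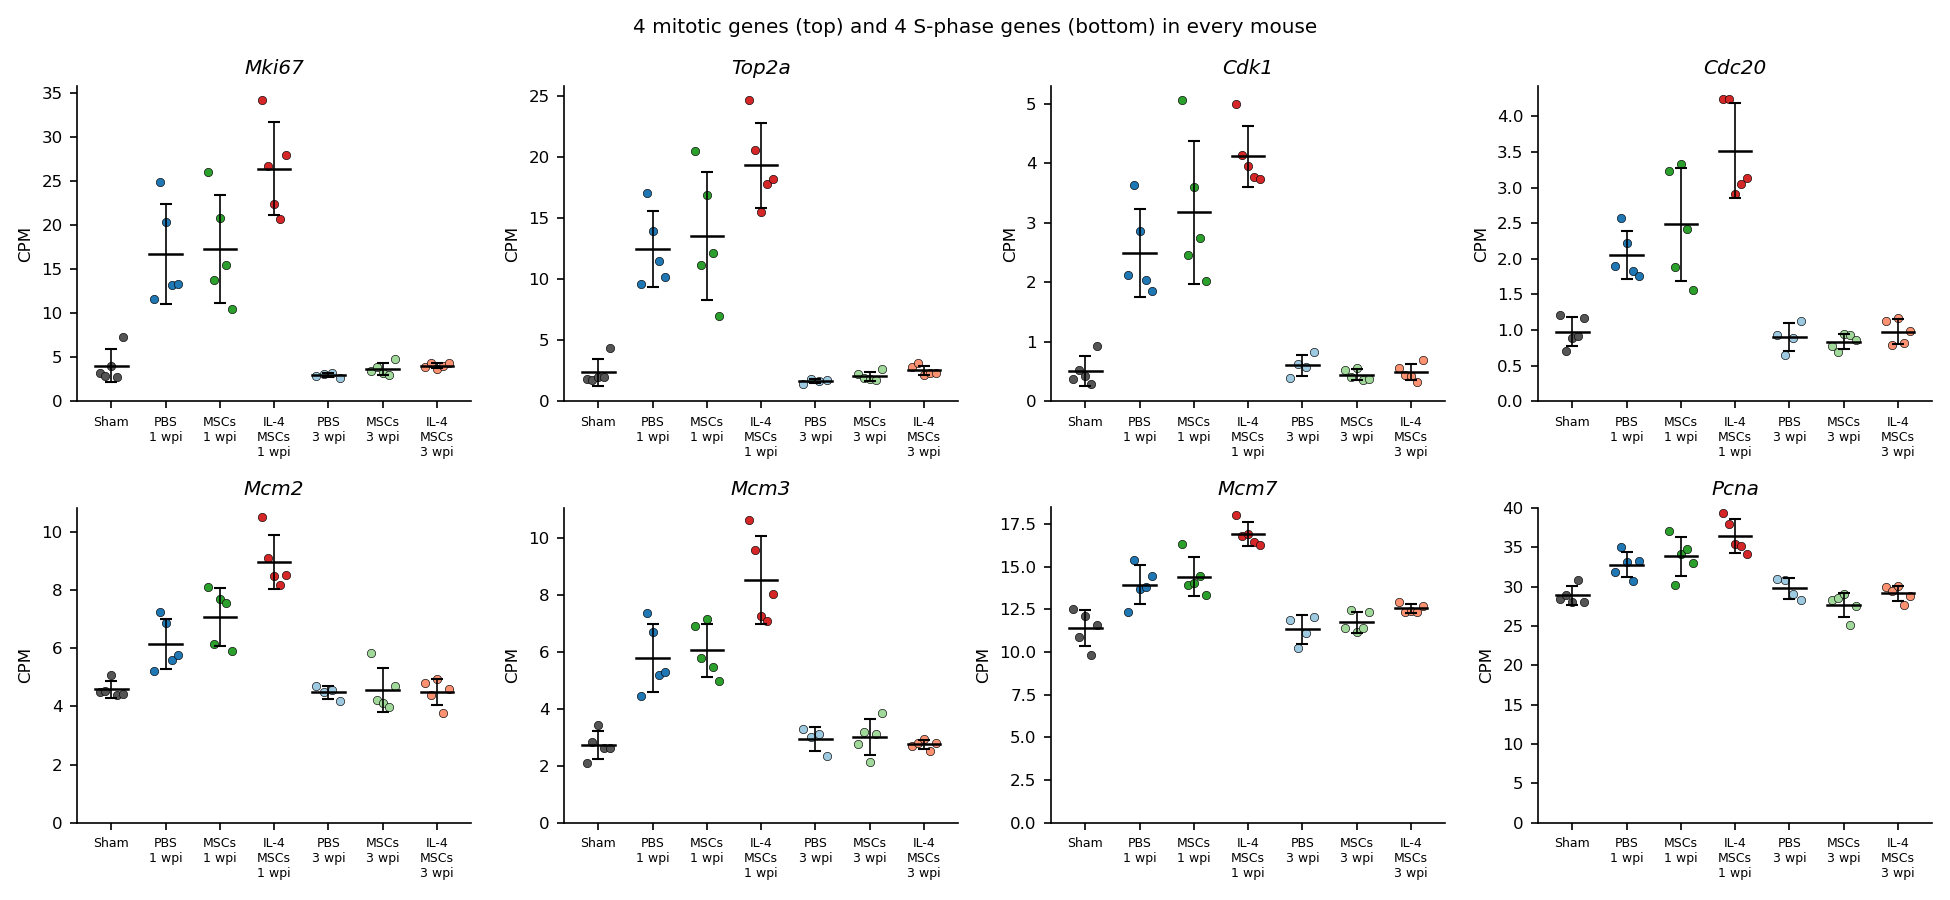
CPM of 4 mitotic genes (top row) and 4 S-phase genes (bottom row) in every mouse, by group along the x axis. Points are mice, horizontal bars group means and error bars SD, and each y axis starts at 0. In every panel the 3 wpi groups lie near Sham, and Pcna changes least relative to its level.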

How the data were processed

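RNA was measured by sequencing in 34 mice. Per the methods and the labels, the authors trimmed reads with cutadapt 2.4, checked them with FastQC 0.11.8 and quantified them with kallisto 0.46 against protein-coding GENCODE mouse transcripts, and 1 PBS mouse at 3 wpi labelled as excluded had no column. The deposited table holds estimated counts per gene and TPM, which the authors summed over transcripts. It also holds the authors' own test results (p-values, q-values and fold changes), which were not used.

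Estimated counts were rounded and tested with edgeR 4.0.16 (R 4.3.3; TMM factors 0.968 to 1.04, filterByExpr, quasi-likelihood test, Benjamini-Hochberg over 17131 genes, threshold 0.05) in 1 fit of the 7 groups. CPM are rounded counts over library total times TMM factor. SE is the log2 fold change over the root of F. The prior count of 2 applies to log2 CPM and not to the fold changes. DESeq2 1.42.0, other factors, filters, covariates and left-out mice were alternatives, and the fitting was tested on simulated data. TPM were compared as means without a test. The 3 wpi PBS group has 4 mice.

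The genes and lists were chosen with earlier results of these data known. Genes given in full were, within each list, the 4 with the highest mean CPM and the 4 with the largest called log2 fold change between IL-4 MSCs and PBS at 1 wpi, of other cell cycle lists the 3 with the smallest adjusted p in that comparison, and of marker lists the most abundant gene, which for microglia and macrophage markers is not reported here. Aurkb, Foxm1 and the other genes named beside them were chosen after their values were seen. Sequences are from RefSeq (GRCm38.p6).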

Additional observations from a re-analysis of the deposited data

Results flagged for a closer look

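Single mice lay far from the rest of their group by Dixon's criterion in 8 of 119 sets of values tested, where chance gives about 1 in 20. Sham replicate 5 was apart for Mki67 (7.26 CPM, others 2.81 to 4.01 CPM), for Top2a (4.32 CPM, others 1.73 to 1.98 CPM) and for the mitotic mean (1.03 log2 CPM). Sham replicate 3 was apart for Mcm2 (5.10 CPM, others 4.40 to 4.55 CPM). Replicate 1 of IL-4 MSCs at 1 wpi was apart for Prc1 (13.2 CPM, others 8.41 to 9.48 CPM), for Mcm6 (17.4 CPM, others 13.6 to 14.2 CPM) and for Rrm2 (14.9 CPM, others 7.05 to 8.82 CPM). Replicate 5 of MSCs at 3 wpi was apart for Rrm2 (2.21 CPM, others 1.32 to 1.58 CPM).

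The interaction of week and treatment passed the threshold for Mcm2 between IL-4 MSCs and PBS (log2 difference 0.54, edgeR interaction adjusted p = 0.0352) and for Mcm6 between IL-4 MSCs and PBS (0.51, adjusted p = 0.0249) and between IL-4 MSCs and MSCs (0.51, adjusted p = 0.0140, edgeR). These were 2 and 1 of 36 genes, where 3.93% and 5.96% of all genes passed in that direction, and nothing particular to the 36 genes was read from these calls. Against PBS, 0 genes passed without replicate 1 and 0 without replicate 4 of PBS at 1 wpi, and neither Mcm2 against PBS nor Mcm6 against MSCs passed once the striatum score was added to the fit.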

How the results depend on the processing

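With a log2 fold change of at least 1 required, the genes called numbered 20 for MSCs and 19 for PBS against Sham at 1 wpi, 0 between IL-4 MSCs and PBS, 0 between IL-4 MSCs and MSCs, 17 and 18 between weeks with MSCs and PBS, and 0 and 0 for how IL-4 MSCs differed between weeks from PBS and from MSCs. With the striatum score as a covariate, IL-4 MSCs against PBS had 11 calls and the difference between weeks 1, and the mitotic minus S-phase median was 0.0840 against PBS and -0.85 between weeks with IL-4 MSCs. Only the 2 groups fitted gave 5 calls against MSCs, and DESeq2 gave 3 (Mcm6, Mcm3 and Tk1) for the difference between weeks against MSCs. Without Mki67, Ccna2 and Top2a the median difference between weeks with IL-4 MSCs was -0.45, and with means in place of medians the difference was -0.73 with MSCs. Against Sham mice of week 1 alone, an alternative chosen after seeing the data, the mitotic minus S-phase median at 1 wpi was 1.15 with IL-4 MSCs, 0.74 with MSCs and 0.92 with PBS. Tyms changed sign against MSCs without replicate 1 of IL-4 MSCs, where its log2 fold changes with 1 mouse left out ranged from -0.00710 to 0.116. The causes were not tested. The remaining 161 of 180 values stayed within 1.5 times the count or 1 SD between mice.

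With each mouse left out in turn, calls ranged from 6 to 25 against PBS and 1 to 19 against MSCs at 1 wpi, from 0 to 1 for IL-4 MSCs against Sham and 0 to 1 against PBS at 3 wpi, and from 0 to 4 and 1 to 2 for how IL-4 MSCs differed between weeks from PBS and from MSCs. Against Sham at 1 wpi they ranged from 36 to 36 with IL-4 MSCs, 32 to 36 with MSCs and 33 to 35 with PBS. The share of all genes called in these fits was not compared. The mitotic minus S-phase median for IL-4 MSCs against Sham ranged from 0.55 to 0.88, the highest without Sham replicate 5.

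Replicate numbers did not pair the mice. Same-numbered mice of different groups had a median correlation of deviations of 0.0116 over 99 pairs, 24 of them over 0.1. With the replicate number as a block, 17 genes were called for IL-4 MSCs against PBS and 34 for MSCs against Sham, and the other counts of calls were as without it. Low levels limit Bub1, which had 3 counts or fewer in 1 library, and p-values measure the spread between these mice alone.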
